A study of Mus musculus with 21 samples.

Results

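The potassium channel genes of these mice were taken as every gene whose symbol starts with Kcn, apart from Kcne2 and Kcnj13, a rule on names that used no measured value. It gave 93 genes of the 46290 gene identifiers in the 3 deposited expression tables, and each of the 93 was present in every table. By subunit type they were 8 Kv1 genes (Kcna), 2 Kv2 (Kcnb), 4 Kv3 (Kcnc), 3 Kv4 (Kcnd), 10 electrically silent Kv subunits (Kcnf, Kcng, Kcns, Kcnv), 5 Kv7 (Kcnq), 8 Kv10 to Kv12 (Kcnh), 14 inward rectifiers (Kcnj), 14 tandem-pore leak channels (Kcnk), 8 calcium- or sodium-activated channels (Kcnm alpha, Kcnu, Kcnn, Kcnt) and 15 auxiliary subunits. The remaining 2 carry the prefix without coding for a channel subunit: Kcnq1ot1 is a noncoding RNA transcribed within Kcnq1, and Kcnrg codes for a soluble regulator. The calcium- or sodium-activated class follows gene family, and Kcnu1 is counted in it as a relative of Kcnma1, though not itself opened by calcium.

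The study sequenced RNA from 3 mouse strains, each lacking 1 long intergenic noncoding RNA (lincRNA) that had been replaced by a lacZ reporter cassette carrying a floxed neo selection gene. The groups were brain at E18.5 from the strain labelled linc-Sox2 (called Peril by the authors), lung at E14.5 from the strain labelled linc-Foxf1a (Fendrr), and, from the linc-Brn1b strain, whole brain at P7 and telencephalon at 2 ages, E13.5 and E15.5. Knockout (KO) animals were homozygous and wild-type (WT) animals were littermates. The strains came from hybrid embryonic stem cells with a C57BL/6N father and a mother of another strain. They were crossed back to C57BL/6J once, so KO and WT animals were of mixed background. By the labels there were 21 libraries in 10 groups, 2 in each group except 3 in the linc-Brn1b KO group at E15.5. The authors give n = 2 for the linc-Brn1b sequencing, so which of the 3 entered that group's value is unknown. All KO animals carry the lacZ insertion as well as the deletion, so the absence of the lincRNA and the presence of the cassette cannot be told apart.

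Levels are in FPKM (fragments scaled to transcript length and to the number of mapped fragments), which is per length, so levels of different genes may be set side by side within a table. The tables hold 1 value per group and none per library, so no value has a standard deviation here and the read depth behind a value is unknown. No difference is tested here, and the authors' own test columns were not used. Differences are given on the scale log2(FPKM + 1), which understates changes of low genes, for genes with a mean of at least 1 FPKM in the groups compared, and a gene at or past 1.5-fold on that scale (0.58 in log2) was counted as higher or lower. For linc-Sox2 and linc-Foxf1a the WT and KO values were told apart by their order, carried over from linc-Brn1b. The targeted entries checked the group assignments. linc-Brn1b was 1.60, 2.50 and 0.799 FPKM in WT at E13.5, E15.5 and P7 and was listed at 0 in each KO group, and the lincRNA entry at the Fendrr locus was 38.4 FPKM in WT and 0.0450 FPKM in KO. The entry at the Peril locus went against the assignment, with 0.0109 FPKM in the group taken as WT and 4.65 FPKM in the group taken as KO. The summed level of 4 genes of the Y chromosome (Uty, Kdm5d, Ddx3y, Eif2s3y) differed between WT and KO in all 5 pairs of groups. It was near 0 in WT and 26.4, 21.0 and 23.2 FPKM in KO for linc-Sox2, linc-Brn1b E15.5 and linc-Brn1b P7, and 33.6 and 49.2 FPKM in WT and near 0 in KO for lung and E13.5. Genotype and sex cannot be told apart in any KO against WT comparison, nor age and sex between E13.5 and E15.5 within a genotype. Between those ages the Y-linked sum went down in WT and up in KO. Kcnd1 and Kcne1l are the members on the X chromosome. No member lay within 1 Mb of a deleted locus, the nearest being Kcng4 at 1.41 Mb from Fendrr.

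Potassium channels let potassium ions leave or enter a cell along their electrochemical gradient and so set its resting potential, the shape of its action potentials and its firing rate. Voltage-gated (Kv) channels open on depolarization, with Kv7 subunits carrying the slow M-current, Kv4 the fast transient A-current and Kv3 the rapid repolarization of fast-spiking neurons. Inward rectifiers and tandem-pore channels hold the resting potential, inward rectifiers in glia buffer extracellular potassium, and calcium-activated channels close the loop between calcium entry and repolarization. Auxiliary subunits such as the Kcnip proteins (partners of Kv4), Kcnab proteins (partners of Kv1) and Kcnmb proteins (partners of Kcnma1) change gating and surface expression. In the developing brain, maturing neurons and glia are known to acquire these currents over the weeks around birth.

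RefSeq promoters (build GRCm38.p6, 250 bases before to 50 after the start) were found for 68 of the 93 members. The 100 bases before the start are shown 5′ to 3′ for 6 members with 1 listed start, with each CG dinucleotide in capitals. Kcnj4, Kcnc4 and Kcnip2 are among the largest differences with age, Kcnj9 is one of the members higher in the linc-Brn1b KO at P7, Kcnk5 is lower with age in the telencephalon, and Kcnj5 is the member past the fold in lung.
Kcnj4 (chr15:79505242-79505341, minus strand): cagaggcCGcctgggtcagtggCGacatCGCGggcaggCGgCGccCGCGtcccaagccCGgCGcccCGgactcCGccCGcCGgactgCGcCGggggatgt
Kcnc4 (chr3:107458899-107458998, minus strand): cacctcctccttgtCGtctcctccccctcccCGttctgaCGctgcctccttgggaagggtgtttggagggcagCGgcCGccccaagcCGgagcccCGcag
Kcnip2 (chr19:45816064-45816163, minus strand): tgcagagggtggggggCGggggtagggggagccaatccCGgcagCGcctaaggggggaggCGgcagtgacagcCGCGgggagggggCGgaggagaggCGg
Kcnj9 (chr1:172329323-172329422, minus strand): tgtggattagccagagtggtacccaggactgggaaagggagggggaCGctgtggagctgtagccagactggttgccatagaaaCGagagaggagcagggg
Kcnk5 (chr14:20181783-20181882, minus strand): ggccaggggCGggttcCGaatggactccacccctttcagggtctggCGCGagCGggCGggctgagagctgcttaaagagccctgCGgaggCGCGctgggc
Kcnj5 (chr9:32344345-32344444, minus strand): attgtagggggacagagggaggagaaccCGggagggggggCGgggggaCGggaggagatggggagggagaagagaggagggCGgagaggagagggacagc
The 6 promoters ran from a CpG-dense one at Kcnj4, with 16 CG dinucleotides in the 100 bases shown, and 9 at Kcnk5, to 2 at Kcnj9. A promoter was counted as CpG-rich at a GC content of at least 50% and an observed to expected CpG ratio of at least 0.6 over its 300 bases, which 25 of the 68 members (36.8%) met at 1 or more starts, beside 36.0% of all 27018 genes with a promoter. Of the motifs searched on both strands, no pair of which can share bases, GGGCGG was in the promoters of 42 members (61.8%) and of 38.2% of all genes, TATAAA in 4 members (5.88%) and 15.7% of all genes, and TGACGTCA in 0 members and 2.03% of all genes. Among the 34 matched members higher in WT P7 brain than in E15.5 telencephalon, 25 (73.5%) held GGGCGG, beside 10 of 23 (43.5%) below the expression filter and 7 of 11 (63.6%) of the rest. These are letter matches and describe the sequences only.

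Of the 93 genes, 76 reached 1 FPKM in at least 1 group and 17 did not in any: Kcna7, Kcna10, Kcne1, Kcng3, Kcng4, Kcnh6, Kcnj1, Kcnj14, Kcnk7, Kcnk15, Kcnk16, Kcnk18, Kcnmb1, Kcnmb3, Kcnn4, Kcnq1ot1 and Kcnv2. In the linc-Brn1b table the number at 1 FPKM or more was 44 in WT E13.5 telencephalon, 56 in WT E15.5 telencephalon and 65 in WT P7 brain, and 51, 54 and 69 in the matching KO groups. Their summed level was 210.4, 320.3 and 702 FPKM in WT and 236, 324 and 882 FPKM in KO, which was 0.0485%, 0.0736% and 0.174% of the summed FPKM of the whole table in WT and 0.0618%, 0.0748% and 0.226% in KO. In E18.5 brain the members summed to 468 FPKM in the group taken as WT and 497 FPKM in the group taken as KO. In E14.5 lung they summed to 106 FPKM in WT and 111 FPKM in KO, with 26 members at 1 FPKM or more in each group. The 3 tables were normalized separately, so levels and counts at 1 FPKM from different tables are each table's own values set side by side.

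Among the most abundant members in brain were Kcnmb4, the neuronal BK beta subunit, at 13.6, 23.9 and 43.0 FPKM in WT with age, and Kcnip1, a Kv4 partner, at 9.60, 13.6 and 27.7 FPKM. Kcnd2 and Kcnd3, the pore-forming A-current subunits, were at 4.85 and 10.4 FPKM in WT E13.5 telencephalon and at 33.6 and 15.7 FPKM in WT P7 brain, so the order of the pair was opposite at the earliest and latest age. In E18.5 brain they were 18.6 and 17.5 FPKM in the group taken as WT. The group taken as KO had 22.0 and 17.4 FPKM. Kcnk2, a mechanosensitive tandem-pore channel, was 8.65, 12.9 and 17.9 FPKM in WT with age.

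In the lung table the highest members were Kcnk1 (11.1 FPKM in WT and 9.48 in KO), Kcne1l (9.13 and 11.4), Kcnj8 (8.10 and 8.83), the vascular and cardiac KATP pore subunit, Kcnk3 (7.19 and 8.11), an acid-sensitive leak channel, and Kcnmb4 (5.94 and 5.30). By each table's own FPKM, Kcnj15, Kcnk6 and Kcnq1 reached 1 FPKM in both lung groups and in no brain group. Kcnq1 shares its table locus with Kcnq1ot1, so both values are uncertain. The reverse, at least 1 FPKM in all 8 brain groups and less in both lung groups, held for 29 members, among them Kcnq3, Kcnd2, Kcnd3, Kcnip1, Kcnip4 and Kcnma1. In lung Kcnd2 was 0.321 FPKM in WT and 0.327 FPKM in KO. Only 10 members were at 1 FPKM or more in all 10 groups, among them Kcnab2, Kcne1l, Kcnh2, Kcnip2, Kcnip3, Kcnj8, Kcnk1, Kcnk2 and Kcnmb4.

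**Figure D1:**
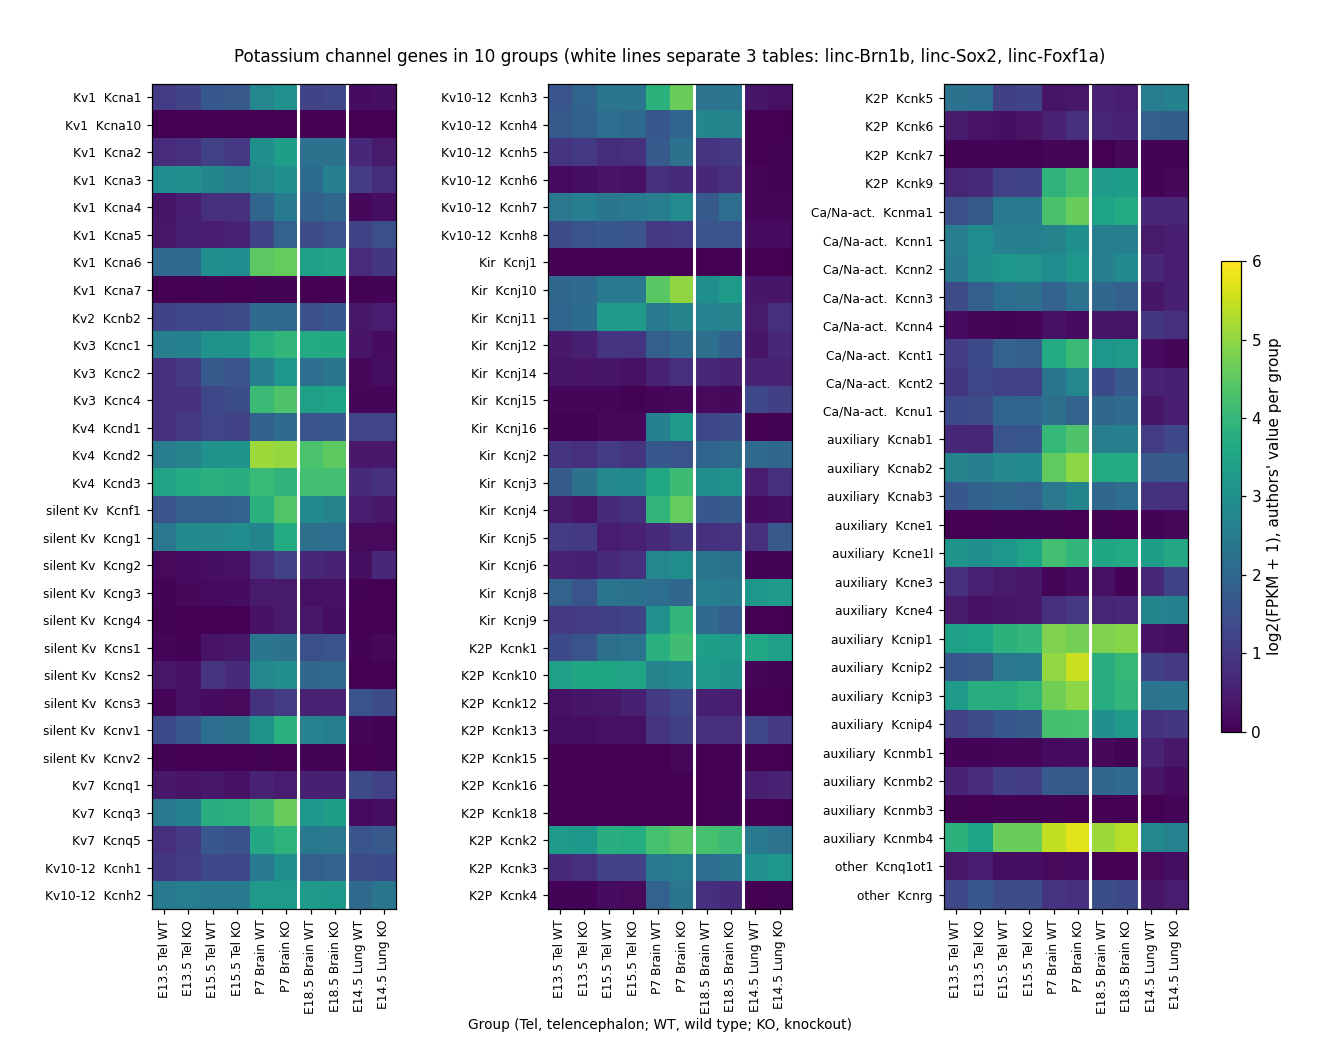
Level of the potassium channel genes, 4 of the 93 left out (rows, grouped by subunit type, K2P standing for tandem-pore leak channels and Kir for inward rectifiers) in each of the 10 groups (columns), as log2(FPKM + 1) of the authors' 1 value per group. Kcnmb4 is among the brightest rows in brain, most rows brighten toward P7, and the 2 lung columns on the right are dark for most Kv genes.

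Between E13.5 and E15.5 the members furthest apart in WT telencephalon were Kv7, inward rectifier and calcium-activated channel genes. Of the 93 members, 51 had a mean of at least 1 FPKM, and 19 were at least 1.5-fold higher at E15.5 and 1 was lower, beside 8.66% higher and 8.06% lower among all 13539 genes that passed the same filter. The median difference was 0.48 over the 51 and 0.21 over all 93, beside 0.01 over all genes. The 42 other members were below the filter. Since a gene can pass through the age at which it is high, as 8 of the 51 did with 1 age under 1 FPKM, the count describes the members that passed.

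Kcnq3, an M-channel subunit, was 4.36 FPKM at E13.5 and 12.8 FPKM at E15.5 in WT, a difference of 1.37 in log2(FPKM + 1). All 4 Kv7 genes that passed were past the fold, Kcnq5 by 0.80 (0.759 to 2.07 FPKM). Kcnj11, the neuronal KATP pore subunit, went from 2.85 to 8.78 FPKM (1.35), and its regulatory subunit gene Abcc8 was 1.77 and 8.27 FPKM. Kcnj3 (GIRK1), a pore subunit of G-protein-gated channels, went from 2.36 to 6.06 FPKM (1.07). Kcnma1, the BK pore subunit, went from 1.75 to 4.48 FPKM (0.996), and 4 of the 7 calcium- or sodium-activated genes that passed were past the fold.

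The others of the 10 largest differences were Kcnab1 (0.592 to 1.95 FPKM), Kcnc2 (0.770 to 2.25), Kcnk1 (1.53 to 3.61), Kcnv1 (1.54 to 3.60), Kcna6 (3.26 to 6.69) and Kcnn3 (1.57 to 3.52), a small-conductance calcium-activated channel. Kcnk5, an alkaline-activated tandem-pore channel, was the 1 passing member lower, with 3.74 FPKM at E13.5 and 1.21 FPKM at E15.5 (-1.101). At P7 it was 0.256 FPKM. Kcnj5, below the filter, was 1.09 FPKM at E13.5 and 0.363 FPKM at E15.5 (-0.61). Of the other potassium current and gradient genes that passed, 12 of 21 were higher and 1 lower, with a median of 0.66. Progenitor and neuron markers differed over the same interval. Of the 6 progenitor markers (Pax6, Sox2, Nes, Hes5, Vim, Eomes) 4 were lower, and of 7 neuron markers 3 were higher with none lower. In bulk tissue, more neurons and more RNA per neuron cannot be told apart, and the part of cell composition in these differences was not tested.

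The KO telencephalon, which shares no library with the WT groups, gave 12 members higher and 1 lower of the 52 that passed, beside 10.4% higher and 7.56% lower among all 13569 genes. The median difference was 0.40 over the members that passed and 0.15 over all 93, beside -0.03 over all genes. Of the calls higher, 11 were common to both genotypes, which is 57.9% of the 19 in WT and 91.7% of the 12 in KO. Over all genes, the calls higher in both were 50.8% of those in WT and 42.3% of those in KO. Kcnk5 was lower in both (3.56 to 1.30 FPKM in KO, -0.99). Kcnj8 was counted in KO alone (1.96 to 3.75 FPKM). Another 8 were counted in WT alone, among them Kcna1, Kcnc2, Kcnh3, Kcnn2, Kcnn3, Kcnq5 and Kcnt1. The difference between genotypes in these steps was not tested. Sex differed as well, since the Y-linked sum went opposite ways in WT and KO over this interval.

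In KO the largest differences were those of Kcnmb4 (10.2 to 24.2 FPKM, 1.17), Kcnq3 (5.22 to 12.96, 1.17), Kcnj11 (3.36 to 8.33, 1.097), Kcnab1 (0.566 to 2.03, 0.95) and Kcna6 (3.29 to 6.58, 0.82). They were followed by Kcnip2 (2.18 to 4.44 FPKM), Kcnk1 (1.93 to 3.87), Kcnma1 (2.37 to 4.45) and Kcnj8.

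P7 whole brain held far more of these transcripts than E15.5 telencephalon, and the genes furthest apart came from several families. Age and tissue differ together in this comparison and cannot be told apart. In WT 64 members passed, 45 of them at least 1.5-fold higher at P7 and 3 lower, beside 23.5% higher and 27.2% lower among all 14152 genes. The median difference was 0.97 over the 64 members and 0.61 over all 93, beside -0.10 over all genes. In KO 65 members passed, 49 higher and 1 lower, beside 24.5% higher and 27.4% lower among all 14109 genes, with a median of 1.36 over those members and 0.77 over all 93, beside -0.10 over all genes. Of the members that passed, 10 in WT and 13 in KO were under 1 FPKM at 1 of the ages, so these counts describe the members that passed the filter. The 2 genotypes share no library and had 44 of the higher calls in common, 97.8% of those in WT and 89.8% of those in KO, beside 87.4% and 84.1% over all genes.

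Inward rectifiers had 8 of 10 passing members higher and 1 lower in WT. Kcnj4 (Kir2.3), a strong inward rectifier of forebrain neurons, was 0.342, 0.668 and 14.1 FPKM in WT at E13.5, E15.5 and P7 and 0.254, 0.830 and 23.1 FPKM in KO, the largest difference of all members in both genotypes (3.18 in WT and 3.72 in KO). Kcnj16, whose product forms heteromers with that of the glial gene Kcnj10, was 0.0213, 0.102 and 5.26 FPKM in WT and 0.0258, 0.0885 and 8.67 FPKM in KO. Kcnj10 (Kir4.1), the main potassium-buffering channel of astrocytes, was 3.05, 4.33 and 21.0 FPKM in WT and 3.27, 4.34 and 30.9 FPKM in KO. In WT the ratio of Kcnj16 to Kcnj10 was thus 0.00699, 0.0235 and 0.251 with age. The ratios at E13.5 and E15.5 are uncertain, since Kcnj16 was far under 1 FPKM at both ages. The G-protein-gated subunit genes Kcnj6 (0.633 to 5.84 FPKM) and Kcnj9 (1.18 to 7.26 FPKM) were further apart than their partner Kcnj3 (6.06 to 10.9 FPKM). The 1 inward rectifier lower at P7 in WT was Kcnj11, at 8.78 and 4.50 FPKM (-0.83), and Abcc8 was lower too, at 8.27 and 3.47 FPKM.

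Among the voltage-gated genes, all 4 Kv3 genes were higher in WT, led by Kcnc4 at 0.744, 1.45 and 15.9 FPKM with age (2.79 between the later ages) and 0.819, 1.71 and 19.4 FPKM in KO. Kcnd2 went from 7.36 to 33.6 FPKM in WT (2.05) while Kcnd3 stayed within the fold, at 12.99 and 15.7 FPKM. Of the Kv7 genes only Kcnq5 was past the fold in WT, from 2.07 to 11.4 FPKM. Kcnq3 differed by 0.32 over this interval, so most of its difference between the earliest and latest WT groups lay between E13.5 and E15.5. In KO, Kcnq3 was past the fold as well (12.96 to 23.4 FPKM). The silent subunit genes Kcnf1 (2.49 to 12.9 FPKM), Kcns1 (0.246 to 4.12) and Kcns2 (0.906 to 5.81), which do not form channels alone but modify Kv2, were higher, along with the Kv2 gene Kcnb2 (1.48 to 3.30).

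Among the auxiliary subunits, 9 of the 10 that passed were higher in each genotype and none lower. Kcnip2 was 2.08, 4.27 and 31.7 FPKM in WT with age and 2.18, 4.44 and 45.2 FPKM in KO. Kcnip4 went from 2.16 to 17.9 FPKM in WT between the later ages (2.58), and Kcnab1 from 1.95 to 14.9 FPKM (2.43). The ratio of Kcnip2 to Kcnip1, both Kv4 partners, was 0.217, 0.314 and 1.14 with age in WT. In KO it was 0.215, 0.302 and 1.76.

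Tandem-pore channels differed both ways. Kcnk9 (TASK-3), an acid-sensitive leak channel of neurons, was 0.539, 1.23 and 14.1 FPKM in WT and 0.645, 1.33 and 17.8 FPKM in KO. Kcnk10 (TREK-2) was the member lower at P7 in both genotypes, with 10.6 and 5.41 FPKM in WT (-0.86) and 10.4 and 6.15 FPKM in KO (-0.67). Kcnh8, an Elk-type channel, was lower in WT, from 2.07 to 1.01 FPKM (-0.61), and was 1.99 and 1.08 FPKM in KO. Among the 10 largest differences in KO were also Kcnab1 (2.03 to 19.0 FPKM), Kcnip4 (2.31 to 18.1), Kcnj9 (1.35 to 14.6) and Kcnf1 (2.70 to 19.6). Of the 64 members with a mean of at least 1 FPKM over the 3 WT groups, 53 were highest at P7, 9 at E15.5 and 2 at E13.5. Of 66 in KO, 58, 5 and 3 were.

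**Figure D2:**
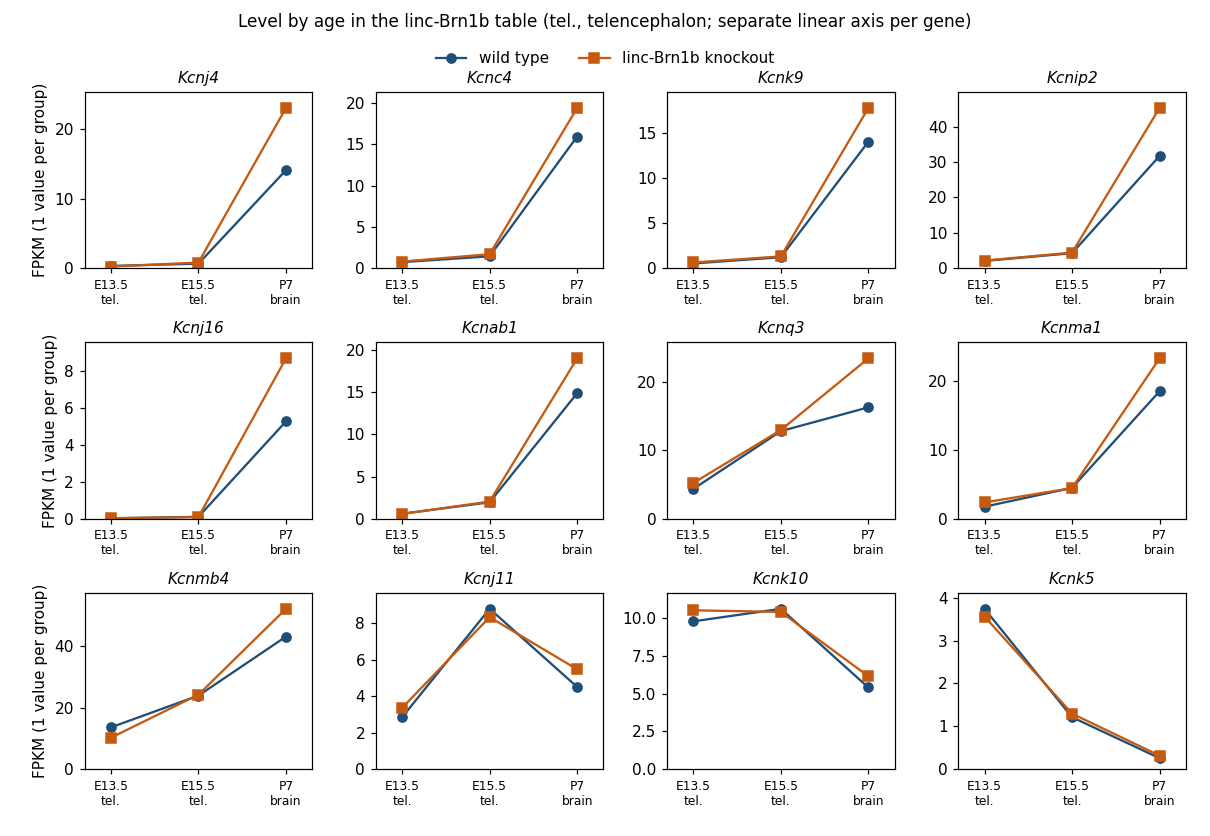
FPKM (linear axis from 0, 1 authors' value per group) of 12 potassium channel genes at E13.5 and E15.5 in telencephalon and at P7 in whole brain, WT in blue circles and linc-Brn1b KO in orange squares. Kcnj4, Kcnc4, Kcnk9, Kcnip2 and Kcnj16 stay below 5 FPKM up to E15.5 and are above it at P7, Kcnmb4 and Kcnq3 already differ between E13.5 and E15.5, Kcnj11 is highest at E15.5, and Kcnk5 is lower at each later age.

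Markers of other cell types differed between E15.5 and P7 as well. In WT, 6 of 6 astrocyte markers and 6 of 6 oligodendrocyte markers were higher at P7, the oligodendrocyte sum going from 24.1 to 593 FPKM, 6 of 7 neuron markers were higher, and 6 of 6 progenitor markers were lower. The part of these cell types in the members' differences was not tested. Of 25 other genes that carry or shape potassium currents and gradients, 22 passed in WT, 12 of them higher and 3 lower with a median of 1.16. Atp1b1, a sodium pump subunit, went from 34.2 to 428 FPKM. The 3 lower were Abcc8, Ank3, an axon initial segment scaffold (70.3 to 45.6 FPKM), and Cntn2, an axonal adhesion protein (87.8 to 14.1 FPKM).

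In linc-Brn1b KO brain at P7, 7 potassium channel genes were at least 1.5-fold higher than in WT and 0 were lower, of 67 that passed, beside 2.08% higher and 2.24% lower among all 14175 genes. The 26 other members were below the filter. Most members leaned the same way: 57 of the 67 (85.1%) were above 0, beside 52.2% of all genes, with a median difference of 0.27 against 0.01 over all genes and 0.23 over all 93 members. Of the 67, 2 were under 1 FPKM in WT and passed through KO, Kcng2 (0.746 and 1.28 FPKM) and Kcnk13 (0.873 and 1.20 FPKM), neither past the fold. With a pseudocount of 0.1 FPKM the number past the fold was 14, and at 2-fold it was 1. With 1 value per group, these differences were not set against the spread between animals.

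Kcng1 (chr2:168083043-168098046 in mm9), a silent subunit that joins Kv2 channels, was 5.48 FPKM in WT and 11.97 FPKM in KO, a difference of 1.001 and the largest of the members. Kcnj9 (chr1:174250635-174259394), the GIRK3 subunit, was 7.26 and 14.6 FPKM (0.92). An overlapping transcript entry, AK007011, was 7.03 and 11.1 FPKM, and how fragments were divided between the 2 entries bears on both values. Kcnh3 (chr15:99055407-99082392), a forebrain Elk-type channel, was 13.48 and 24.0 FPKM (0.79), and the gene Mcrs1, which overlaps its locus, was 58.6 and 54.6 FPKM.

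Kcnv1 (chr15:44937830-44946480), another silent subunit, was 7.48 FPKM in WT and 13.2 FPKM in KO (0.75). Kcnj4 (chr15:79314108-79335671) was 14.1 and 23.1 FPKM (0.67), with an antisense lincRNA entry at 0.563 and 1.19 FPKM, and the 2 cannot be told apart without strand. Kcna5 (chr6:126482569-126485573), a Kv1 subunit best known from heart, was 1.33 and 2.67 FPKM (0.66), and Kcnj16 (chr11:110829347-110889281) was 5.26 and 8.67 FPKM (0.63). Just inside the fold were Kcnh5 (2.26 and 3.82 FPKM, 0.57) and Kcnf1 (12.9 and 19.6 FPKM, 0.56).

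By type, the calls comprised 3 of 10 passing inward rectifiers, 2 of 6 silent subunits, 1 of 6 Kv1 genes and 1 of 7 Kv10 to Kv12 genes. All 8 tandem-pore genes, all 4 Kv3 genes, all 4 Kv7 genes, all 6 Kv1 genes and all 7 Kv10 to Kv12 genes that passed were above 0. The 10 members below 0 were Kcnb2, Kcnd2, Kcnd3, Kcne1l, Kcnip1, Kcnj2, Kcnj8, Kcnmb2, Kcns1 and Kcnu1, so 2 of the 3 Kv4 genes were slightly lower (Kcnd2 33.6 and 31.9 FPKM, Kcnd3 15.7 and 14.05 FPKM). Among the 5 members with the highest mean were Kcnmb4 (43.0 and 52.1 FPKM), Kcnip2 (31.7 and 45.2), Kcnd2 and Kcnip3 (24.9 and 29.9). None of these was past the fold, Kcnip2 coming nearest at 0.50.

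Other cell and region markers differed between the P7 groups. Of 6 cerebellum and hindbrain markers that passed, 5 were lower in KO and none higher (sum of the 7 listed 147 FPKM in WT and 77.8 in KO, median -1.05), and of 6 oligodendrocyte markers 4 were lower (593 and 381 FPKM). Of 6 progenitor markers 2 were lower, of 6 astrocyte markers 1 was higher and 1 lower, and of 7 neuron markers none was past the fold, their sum being 2928 and 2836 FPKM. None of the defining markers of these lists was at 0 in either group. The part of region or cell composition in the members' differences was not tested. The 25 other potassium current and gradient genes had 23 passing, none past the fold in either direction, with a median of 0.21, the highest being Lgi1, a secreted Kv1-associated protein, at 20.2 and 30.01 FPKM (0.55).

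**Figure D3:**
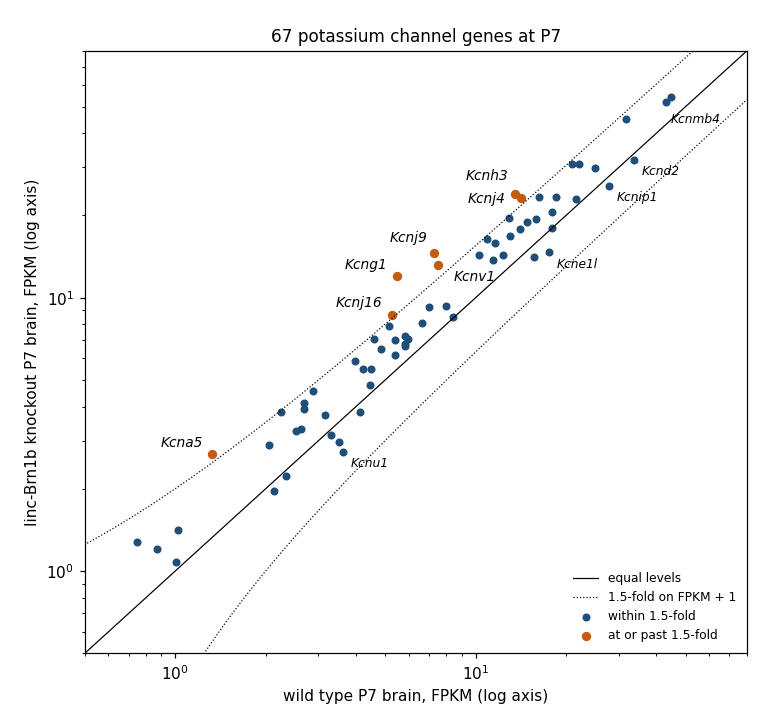
FPKM in linc-Brn1b KO brain at P7 against WT (both log axes) for the 67 potassium channel genes with a mean of at least 1 FPKM, 1 authors' value per group. The 7 orange genes lie at or above the upper dotted line of 1.5-fold on FPKM + 1, no gene lies at or below the lower one, and 57 of the 67 points are above the line of equal levels.

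At E13.5 the linc-Brn1b KO telencephalon had 0 of 47 passing members at or past 1.5-fold on FPKM + 1. Beside them, 7.06% of all 13507 genes were past it either way, 209 higher and 745 lower. The members were nonetheless mostly above 0, 39 of 47 (83.0%) beside 58.9% of all genes, with a median of 0.14 over the members that passed, 0.07 over all 93 and 0.06 over all genes. Of the 47, 3 (Kcnh1, Kcnj9 and Kcnt2) were under 1 FPKM in WT and passed through KO, so these shares describe the members that passed. Kcnj3 (2.36 FPKM in WT and 3.81 in KO, 0.52), Kcng1 (4.27 and 6.34, 0.48) and the small-conductance channel gene Kcnn2 (4.58 and 6.70, 0.46) were highest. All 7 calcium- or sodium-activated genes that passed were above 0, with a median of 0.29. Kcnmb4 (13.6 and 10.2 FPKM, -0.38) and Kcnj8 (2.74 and 1.96 FPKM, -0.34), a gene of pericytes, were the lowest.

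Among the 5 members highest in mean at E13.5 were Kcnmb4, Kcnd3 (10.4 and 12.01 FPKM), Kcnip3 (8.94 and 12.5) and Kcnk10 (9.79 and 10.5). At this age 1 of 7 endothelial, 2 of 5 passing microglial and 1 of 4 passing erythroid markers were lower in KO, pericyte markers had a median of -0.21 with none of 5 past the fold, and neuron markers a median of 0.18 with none of 7 past it. Their part in the result was not tested. Of the other potassium genes, 1 of 20 was past the fold at E13.5, Lgi1 at 1.91 and 3.91 FPKM (0.76). The E13.5 and P7 comparisons share no library, and of the 44 members that passed in both, 33 (75%) were above 0 in both, beside 34.7% of 12678 genes. With 39 of 47 members above 0 at E13.5 and 57 of 67 at P7, most would be above 0 in both even if the comparisons were unrelated. The 75% therefore does not show that the same members repeated. Above 0 in both were 23 of 46 members (50%) for E13.5 with E15.5, and 24 of 53 (45.3%) for E15.5 with P7. Kcng1, Kcnh3, Kcnv1 and Kcnj9 were among the 33 above 0 at both E13.5 and P7, with 0.48, 0.36, 0.29 and 0.08 at E13.5. The other calls of P7 were below the filter at E13.5, Kcnj4 with -0.10, Kcna5 with 0.13 and Kcnj16 with 0.01.

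At E15.5 the members centred near 0. None of 55 passing members reached 1.5-fold, beside 0.473% of all 13521 genes, 31 of 55 (56.4%) were above 0 beside 53.5% of all genes, and the median was 0.02 against 0.01. Members ranged from -0.21 (Kcna3, 5.70 FPKM in WT and 4.81 in KO) to 0.32 (Kcne1l on the X chromosome, 7.91 and 10.1 FPKM). Kcng1 was 6.04 and 6.58 FPKM, Kcnh3 3.92 and 4.16, Kcnv1 3.60 and 3.70 and Kcnj9 1.18 and 1.35. The 5 highest, among them Kcnmb4 (23.9 and 24.2 FPKM), Kcnip1 (13.6 and 14.7), Kcnip3 (12.3 and 14.1) and Kcnq3 (12.8 and 12.96), differed by 0.19 at most. Choroid plexus markers were lower in KO at this age, 4 of 5 that passed (sum 247 and 5.82 FPKM), with no member past the fold beside them, and none of 21 other potassium genes was past it. Whether the KO against WT difference of a member itself differs between ages was not tested.

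**Figure D4:**
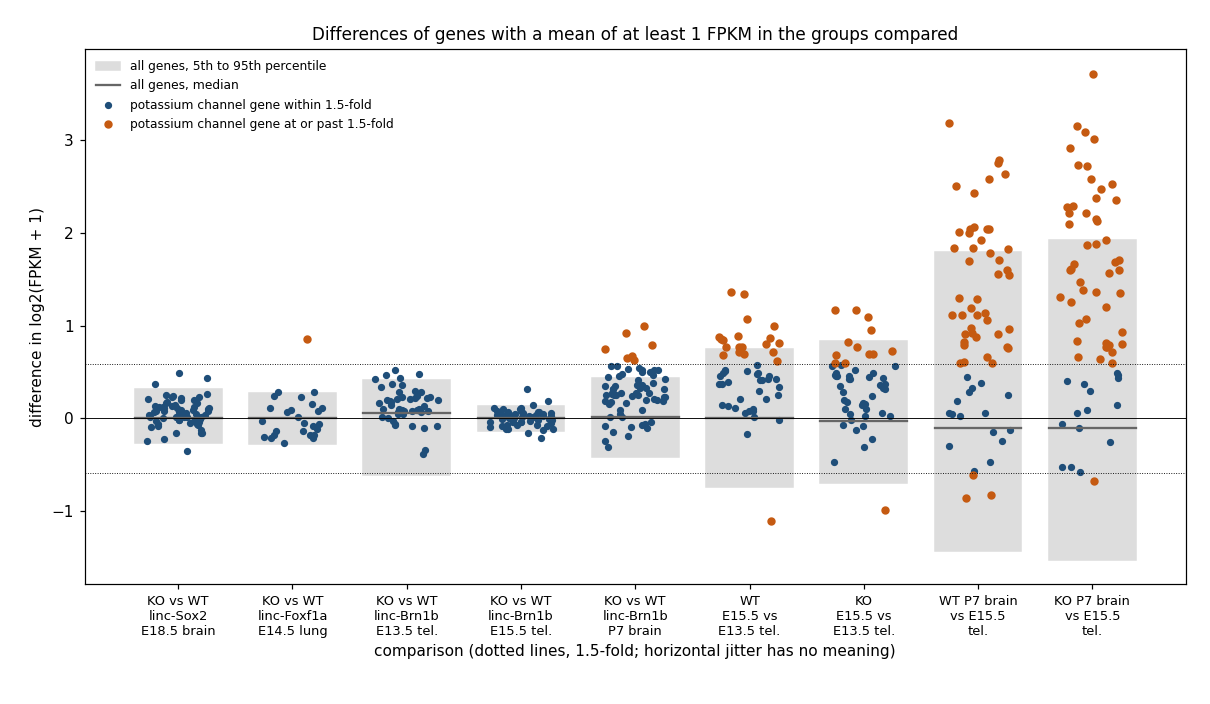
Difference in log2(FPKM + 1) of each potassium channel gene that passed the filter (points, orange at or past 1.5-fold) in 5 KO against WT and 4 age comparisons, beside the 5th to 95th percentile (grey) and median (line) of all genes that passed. Points centre near 0 in E18.5 brain, lung and E15.5 telencephalon, lie above the median of all genes in P7 brain (0.27 against 0.01), and extend past 3 between E15.5 telencephalon and P7 brain.

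In E18.5 brain, none of 63 passing members reached 1.5-fold on FPKM + 1 between the linc-Sox2 groups taken as WT and KO. Beside them, 1.62% of all 14405 genes did. Without the pseudocount, Kcna3 and Kcnh7 were each 1.52-fold higher in the group taken as KO. Of the 63, 44 (69.8%) were above 0 beside 50.8% of all genes, with a median of 0.07 against 0.00. Among the widest differences were those of Kcna3 (3.37 and 5.14 FPKM, 0.49), whose locus overlaps the entry AI504432 (5.91 and 8.70 FPKM), Kcnh7 (2.26 and 3.42 FPKM, 0.44) and Kcnj12 (3.66 and 2.64 FPKM, -0.35). All 10 auxiliary subunits that passed were above 0, none beyond 0.24. Among the highest members were Kcnmb4 (33.9 and 39.8 FPKM), Kcnip1 (27.6 and 29.1), Kcnd2 (18.6 and 22.0) and Kcnd3 (17.5 and 17.4). Of the other potassium current and gradient genes none of 22 was past the fold, with a median of 0.03. Since the targeted entry went against the group assignment in this pair, a direction here is that of the groups as assigned by the order of the values.

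In E14.5 lung, Kcnj5 was the 1 member of 26 past the fold, beside 2.22% of all 13979 genes either way. Of the 26, 2 passed the filter with 1 group under 1 FPKM. Kcnj5 was one of these and passed through KO, where it was higher, so the count describes the members that passed. Kcnj5 (chr9:32122368-32151822 in mm9), the GIRK4 subunit of the atrial acetylcholine-gated channel, was 0.746 FPKM in WT and 2.17 FPKM in KO (0.86), and with a filter of 5 FPKM it did not enter. Its cardiac partner Kcnj3 was 0.377 and 0.782 FPKM, under the filter. The pacemaker channel gene Hcn4, from the list of other potassium and gradient genes, was 0.687 and 1.94 FPKM (0.80), the 1 of 10 passing genes of that list past the fold. It too passed the filter through KO. Of 12 cardiac muscle markers, which all passed, 11 were higher in KO and none lower (sum 417 FPKM in WT and 1265 in KO, median 1.497), and 6 of 8 skeletal muscle markers were higher (22.3 and 49.2 FPKM). Cardiac markers were thus present in both lung groups and differed in the same direction as Kcnj5, and their part in it was not tested.

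The other 25 passing members in lung ranged from -0.27 (Kcnk13, 1.43 and 1.01 FPKM) to 0.29 (Kcne1l). Of the 26, 12 (46.2%) were above 0 beside 51.4% of all genes, with a median of -0.04 against 0.00, and 67 members were below the filter. Lung epithelium markers had a median of -0.07 with none of 6 past the fold, and endothelial markers a median of -0.25 with none of 7 past it. The vascular pair Kcnj8 and Abcc9, pore and regulatory subunit of 1 KATP channel, was 8.10 and 7.58 FPKM in WT and 8.83 and 6.21 FPKM in KO.

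Several members lie side by side in the genome. Kcnj9 and Kcnj10 are 11.9 kb apart on chromosome 1, and both were higher in KO at P7, Kcnj10 within the fold (21.0 and 30.9 FPKM, 0.54). Kcnj16 and Kcnj2 are 36.7 kb apart on chromosome 11 and went different ways there, Kcnj2 being 2.13 and 1.96 FPKM. Kcna5, Kcna1 and Kcna6 lie within a run on chromosome 6, and only Kcna5 of them was past the fold at P7, with Kcna1 at 5.81 and 7.24 FPKM and Kcna6 at 21.5 and 23.0 FPKM. Kcnip1 and Kcnmb1 carry 1 locus in the tables, so the Kcnmb1 value (0.0448 to 0.143 FPKM in the linc-Brn1b table) is uncertain, and so is that of Kcnip1. Entries other than members overlapped the loci of 45 of the 93 in the linc-Brn1b table and 46 in each of the others, and for 22, 12 and 8 of them (linc-Brn1b, linc-Sox2, linc-Foxf1a) such an entry reached 1 FPKM. No strand use is stated for the libraries, so fragments of antisense partners cannot be told apart.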

How the data were processed

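The data are RNA-seq of 21 libraries in 10 groups, read from both ends over 101 bp. Alignment by the authors was with TopHat2 on mm9, transcript assembly with Cufflinks 2.0.2, and FPKM estimation with Cuffdiff2. The deposited tables hold 1 FPKM value per group, for 2 libraries a group and 3 in 1 group by the labels. There are 0 columns of values per library. The tables also hold the authors' own log2 fold changes, test statistics, p-values and q-values, which were not used. In the 15 pairwise comparisons of the linc-Brn1b table the value columns matched their group names. The same order was taken for linc-Sox2 and linc-Foxf1a, whose value columns do not show which value is which group.

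Each FPKM was taken as log2(FPKM + 1) and 2 groups were subtracted, in 5 KO against WT and 4 age comparisons, with Python 3.11.15, pandas 2.3.3, numpy 2.4.6 and matplotlib 3.10.9. Genes with a mean of at least 1 FPKM were kept, and a 1.5-fold difference was the call. The planned test over libraries could not be run on 1 value per group. The steps were run on simulated data with large planted differences, which checks the arithmetic of the call and not its reliability at the differences seen here. Alternatives were a pseudocount of 0.1 FPKM, no filter, a mean of at least 5 FPKM, a 2-fold call and centring on the median of all genes. Tables were normalized separately, so differences were taken only within a table, and levels of different tables are set side by side. A value listed at 0 can be a failed estimate: Eef1a1 is listed at 0 in 1 group, and Gapdh is under 1 FPKM in all 10.

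Genes named were the calls of each KO against WT comparison, the 10 largest differences in each direction between ages, the 5 highest members per comparison, and the extremes, partners and neighbours set beside them, the last chosen after their values were seen. Where entries share a symbol, the one with the highest mean stands for it. The members and lists were chosen with earlier results of these data known. Some genes that the rule names are not reported here, though counts and medians include them. Positions are mm9, and promoters are RefSeq on GRCm38.p6.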

Additional observations from a re-analysis of the deposited data

How the results depend on the processing

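No paired analysis was possible because the tables give 1 value per group, and for the same reason no replicate was left out in turn. With a pseudocount of 0.1 FPKM, the members past the fold numbered 1 in E18.5 brain, 2 at E13.5, 14 in P7 KO against WT brain and 20 between E13.5 and E15.5 in KO, where log2(FPKM + 1) gave 0, 0, 7 and 13. With a mean of at least 5 FPKM they numbered 0 in lung, 5 and 4 between E13.5 and E15.5 in WT and KO, and 28 and 31 between E15.5 and P7 in WT and KO, with fewer genes compared. At 2-fold they numbered 0 in lung, 1 (Kcng1) in P7 KO against WT brain, 4 and 3 between E13.5 and E15.5 in WT and KO, and 31 between E15.5 and P7 in WT. KO against WT at E15.5 gave 0 under each alternative. Without the filter, further members were past the fold. Among them in WT were Kcnj5, lower at E15.5 than at E13.5 (-0.61), and Kcna5, Kcns3 and Kcnk12. These last were higher at P7 than at E15.5 (0.76, 0.68 and 0.64). Centring on the all-gene median, which was -0.10 between E15.5 and P7, took Kcnh8 in WT and Kcnk10 in KO under the fold, leaving 137 of 139 values of single genes past it, and reversed 0. With 1 value per group and unknown depth, no difference was set here against replicate spread or counting error, and the authors' own tests were not used.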
